A study of Rattus norvegicus with 12 samples.

Results

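The genes described here are 8 enzymes of heme synthesis, measured in rat liver. They were taken by name (Alas1, Alas2, Alad, Uros, Urod, Cpox, Ppox and Fech), and every probe set that the platform annotation assigns to one of these symbols alone was kept. That gave 9 probe sets, 2 for Uros and 1 for each of the other 7 genes, out of 31042 probe sets and 14217 named genes on the arrays. Each of 12 Affymetrix arrays carried liver RNA of 1 male Wistar rat, labelled as 5 weeks old. In 6 rats the purified AIN93G diet held 20% maple syrup, and in the other 6 it held 20% of a sugar mix syrup of similar sugar composition. All 12 rats ate the plain AIN93G diet for 4 days first and their test diet for 11 days, and all were fasted for 16 hours before dissection. The fast is therefore shared by both diets, and fed livers were not analysed here. The labels count 7 rats fed maple syrup and 8 fed the sugar mix, so not every animal fed is among the 12.

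Heme is an iron-holding ring built in a chain of enzyme steps that start and end in the mitochondrion and pass through the cytosol. The first step, the joining of glycine and succinyl-CoA to 5-aminolevulinate, is run by Alas1 in liver and most other tissues and by Alas2 in developing red blood cells. In liver it sets the rate of the pathway. Alas1 is known to be switched on by fasting through the coactivator Ppargc1a, to be induced by drugs through nuclear receptors, and to be held down by heme itself. Most heme made in hepatocytes goes into cytochromes P450.

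The deposited values are the authors' processed values for each probe set and are treated here as a score. Levels ran from 5.57 to 15.21 and look like log2 intensities, but the standard deviation (SD) of a probe set over the 12 livers had a median of only 7.13 millionths of a score unit. Differences between livers can therefore not be read as log2 ratios, and no fold change is given. Values are given as SDs above or below the mean of the 12 livers, and diet differences as Hedges' g, the difference in means in units of the SD within a diet, maple syrup minus sugar mix. The medians of the 12 arrays lay within 169 millionths of each other, which is wider than the spread of most probe sets. Over 12 livers the array median had a correlation of 0.02 with Alas1, 0.41 with Alas2, -0.13 with Alad and 0.49 with Cpox. For the other enzymes it was -0.31 with Uros, 0.17 with Urod, -0.26 with Ppox and -0.09 with Fech. Every one of 6 hepatocyte markers (Alb, Apoa1, Ttr, Serpina1, Fgb and Apoh) had a mean score over 14.

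No enzyme of the pathway passed the test between maple syrup and sugar mix livers. None of the 9 probe sets passed limma's test at an adjusted p of 0.05, and neither did any of the 31042 probe sets tested (0%), the lowest adjusted p on the array being 0.915. With no adjustment, 1264 probe sets (4.07%) had a limma p under 0.05, and so did 1 of the 9 enzyme probe sets, that of Alad. Of the 8 genes, each by its brightest probe set, 5 had a positive g and 3 a negative one, with a median of 0.27. Taken in the same way, 6696 of all 14217 named genes had a positive g, with a median of -0.04. The diet groups overlapped for all 9 probe sets.

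**Figure D1:**
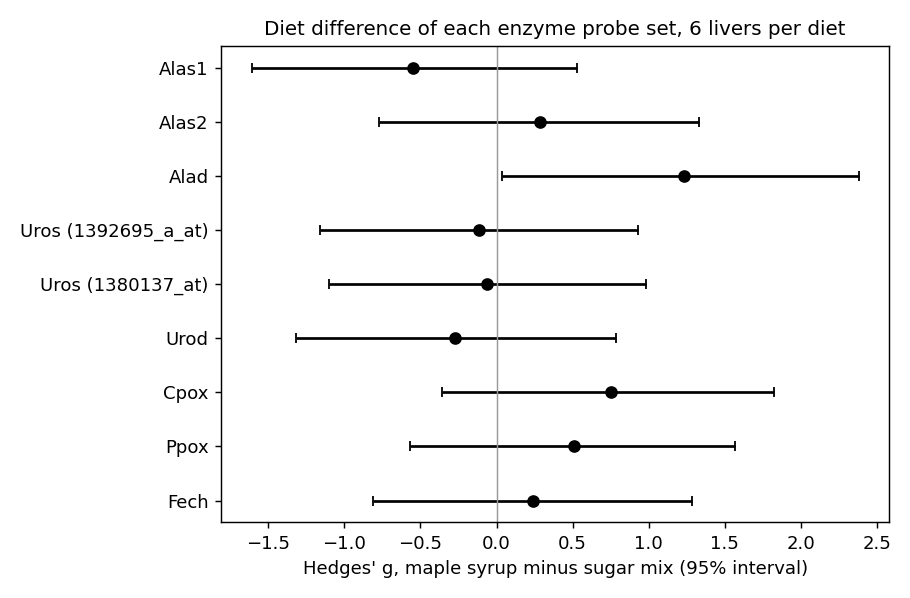
Hedges' g of each enzyme probe set (horizontal axis, in SDs within a diet, maple syrup minus sugar mix) with its 95% interval, from 6 livers per diet. The interval of Alad (0.04 to 2.38) lies just above 0, and the intervals of the other 8 probe sets include 0.

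Alas1 (probe set 1367982_at; gene at chr8:115755238-115768642 in GRCr8) is the housekeeping form of the first enzyme. In maple syrup livers its score had a lowest value of -1.60, a median of -0.41 and a highest of 1.13 SDs. In sugar mix livers the lowest was -1.21, the median 0.56 and the highest 0.91 SDs. In all, 4 of 6 maple syrup livers and 1 of 6 sugar mix livers lay below the overall mean, yet the ranges cover each other. The mean score was 10.988796 in maple syrup livers and 10.990871 in sugar mix livers, a g of -0.55 (95% interval -1.61 to 0.53, n = 6 each). Maple syrup was higher in 14 of 36 pairs of 1 animal from each diet, and the exact permutation test gave a two-sided p of 0.333. Limma gave Alas1 a moderated t of -1.07 and an adjusted p of 1.00.

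The start of Alas1 is shown because the mitochondrial regulator NRF-1 has a known place in the control of this gene in rat. RefSeq's window for GRCr8, chr8:115768593-115768892 on the minus strand, runs from 250 bases before the gene's first base to 50 bases from it, and it is printed 5′ to 3′ with the match to GCGCATGCGC in capitals.
Alas1: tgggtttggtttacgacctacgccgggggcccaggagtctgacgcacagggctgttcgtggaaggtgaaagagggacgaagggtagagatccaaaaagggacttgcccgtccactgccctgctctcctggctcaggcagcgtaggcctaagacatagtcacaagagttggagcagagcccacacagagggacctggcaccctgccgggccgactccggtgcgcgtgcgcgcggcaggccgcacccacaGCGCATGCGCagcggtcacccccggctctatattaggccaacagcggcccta
The capitals span positions -2 to 8, counted with the gene's first base as 1, so the match lies across the start itself. Of 33469 such windows, 0.852% hold this motif on either strand. The match is one of letters and shows no binding in these livers.

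Alas2 (1367985_at; chrX:22890650-22914046) is the erythroid form. Maple syrup livers ran from -0.88 through a median of 0.10 to 1.53 SDs, and sugar mix livers from -2.0 through a median of -0.06 to 1.22 SDs. Both the lowest liver, sugar mix replicate 2, and the highest, maple syrup replicate 3, stood well away from the middle. Its g was 0.29 (-0.77 to 1.33), with maple syrup higher in 21 of 36 pairs and an exact permutation p of 0.600.

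Alad (1367720_at; chr5:80977562-80987901), the cytosolic enzyme that joins a pair of aminolevulinate molecules into porphobilinogen, had the largest g of the 9 probe sets. In maple syrup livers it had a lowest value of -1.16, a median of 0.78 and a highest of 1.38 SDs. In sugar mix livers the lowest was -1.26, the median -0.88 and the highest 0.59 SDs. In all, 5 of 6 maple syrup livers lay above the overall mean and 5 of 6 sugar mix livers below it, with maple syrup replicate 6 and sugar mix replicate 6 as the exceptions. The g was 1.23 (0.04 to 2.38), maple syrup was higher in 29 of 36 pairs, and the exact permutation p was 0.0519. Limma gave a moderated t of 2.39 with an unadjusted p of 0.0364 and an adjusted p of 1.00. The t of Alad was 3.99 when maple syrup replicate 6 was left out, and no probe set passed after adjustment there either. Probe sets higher in maple syrup livers at an unadjusted p under 0.05 made up 1.93% of the array, and lower ones 2.15%.

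The start of Alad is shown for its repeated E-box, CACGTG, the motif read by factors such as Usf1 and Myc. RefSeq's window, chr5:80987852-80988151 on the minus strand in GRCr8, is printed in the same way with both matches in capitals.
Alad: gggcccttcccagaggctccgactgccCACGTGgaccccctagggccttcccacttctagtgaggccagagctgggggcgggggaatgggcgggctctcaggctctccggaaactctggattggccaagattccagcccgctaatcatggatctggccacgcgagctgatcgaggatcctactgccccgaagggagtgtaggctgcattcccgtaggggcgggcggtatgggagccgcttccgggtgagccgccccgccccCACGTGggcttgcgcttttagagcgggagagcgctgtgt
The matches lie at -223 to -218 and at 12 to 17. An E-box of this spelling occurred in 6.42% of the 33469 windows. GGGCGG, the GC box, was matched 6 times in the Alad window on either strand, overlapping matches included, and occurred in 33.1% of all windows. Among the 7 enzymes with a window, the NRF-1 motif was matched for Alas1 alone and the E-box for Alad and Urod. The erythroid GATA motif, searched as AGATAA, was matched in the windows of Alas2 and Fech and in 11.6% of all windows. The Alas2 window starts from a base 4800 bases inside the annotated gene, so it does not show the gene's first start. The windows of Uros and Ppox likewise start 955 and 782 bases inside their genes, so the motif matches over the 7 enzymes cover the annotated gene start of Alas1, Alad, Urod and Fech only.

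The later enzymes did not pass the diet test either. Uros, which closes the linear tetrapyrrole into the asymmetric ring, lies at chr1:197920827-197943183. Its brighter probe set, 1392695_a_at, ranged from -1.75 through a median of 0.35 to 1.05 SDs in maple syrup livers and from -0.71 through 0.05 to 1.33 SDs in sugar mix livers. Its g was -0.12 (-1.16 to 0.93). The other probe set, 1380137_at, ran from -0.80 through -0.14 to 0.84 SDs in maple syrup livers and from -1.50 through -0.04 to 1.71 SDs in sugar mix livers, with a g of -0.06 (-1.10 to 0.99). Over the 12 livers these probe sets of Uros had a Pearson r of 0.37 (permutation p = 0.240) and a Spearman rho of 0.32 (permutation p = 0.308), so a ranking of livers by Uros depends on which of them is read.

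Urod (1370878_at; chr5:135701294-135705380) removes carboxyl groups from the side chains of the ring. It ran from -1.86 through -0.23 to 1.47 SDs in maple syrup livers and from -0.89 through 0.15 to 1.48 SDs in sugar mix livers, with a g of -0.28 (-1.32 to 0.78). Cpox (1377998_at; chr11:55405778-55415761) brings the pathway back into the mitochondrion and makes protoporphyrinogen. Maple syrup livers held -0.57, 0.37 and 1.41 SDs as lowest, median and highest, and sugar mix livers -1.87, -0.57 and 1.36 SDs. Cpox was the enzyme next to Alad in size of g, at 0.75 (-0.36 to 1.83), and maple syrup was higher in 28 of 36 pairs, but the exact permutation p was 0.167.

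Ppox (1377079_a_at; chr13:86230111-86235028) oxidises protoporphyrinogen to protoporphyrin. Its values were -0.56, 0.27 and 1.43 SDs in maple syrup livers and -2.17, -0.28 and 1.32 SDs in sugar mix livers, a g of 0.51 (-0.57 to 1.57). Fech (1390388_at; chr18:60215325-60248525) inserts iron and completes heme. It had -2.35, 0.63 and 1.24 SDs in maple syrup livers and -0.80, -0.26 and 0.90 SDs in sugar mix livers. Maple syrup replicate 5 was the lowest liver for Fech, for Urod and for the brighter Uros probe set. The g of Fech was 0.24 (-0.81 to 1.28). Exact permutation p-values for Urod, Ppox and Fech were 0.619, 0.367 and 0.690.

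**Figure D2:**
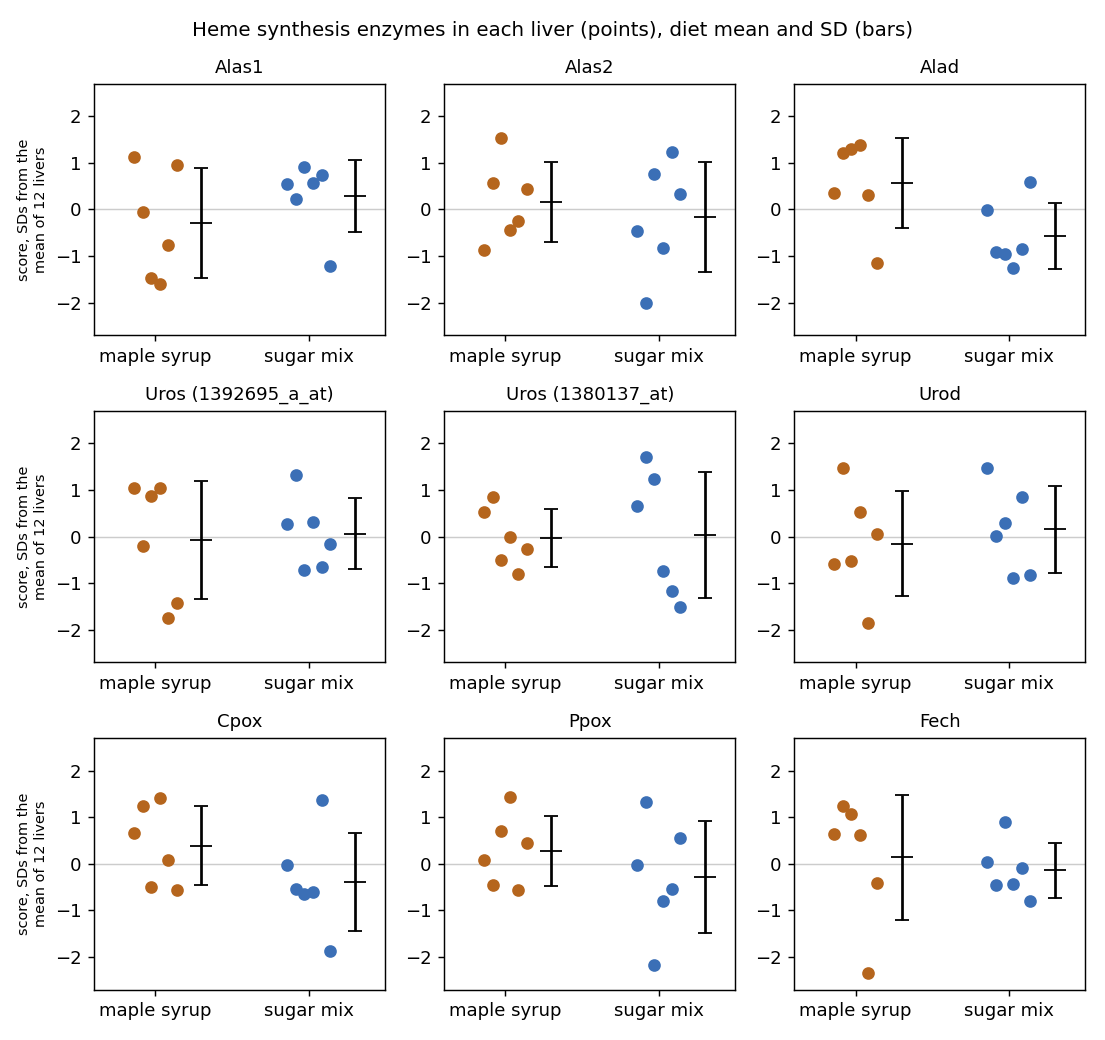
Score of each of the 9 enzyme probe sets in every liver (vertical axis, SDs from the mean of the 12 livers), maple syrup left of sugar mix in each panel, 1 point per animal, with bars for each diet's mean and SD. The diets overlap in every panel, and Alad shows 5 of 6 maple syrup livers above the mean.

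Both forms of the first enzyme had the widest spread between animals in the deposited scores. The SD over the 12 livers was 3481 millionths of a score unit for Alas1 and 1079 millionths for Alas2, wider than 99.3% and 98.4% of all probe sets. Alad came next with 31.7 millionths (83.4%) and Cpox with 13.8 millionths (69.4%). The brighter Uros probe set had 5.64 millionths (41.6%), Fech 3.25 (23.4%), the other Uros probe set 2.68 (17.9%), Ppox 2.66 (17.7%) and Urod 1.12 (3.97%). The deposited score may narrow differences by a different degree in different probe sets. An SD in one probe set is therefore not on a scale shared with another, and the order is that of the deposited values alone.

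**Figure D3:**
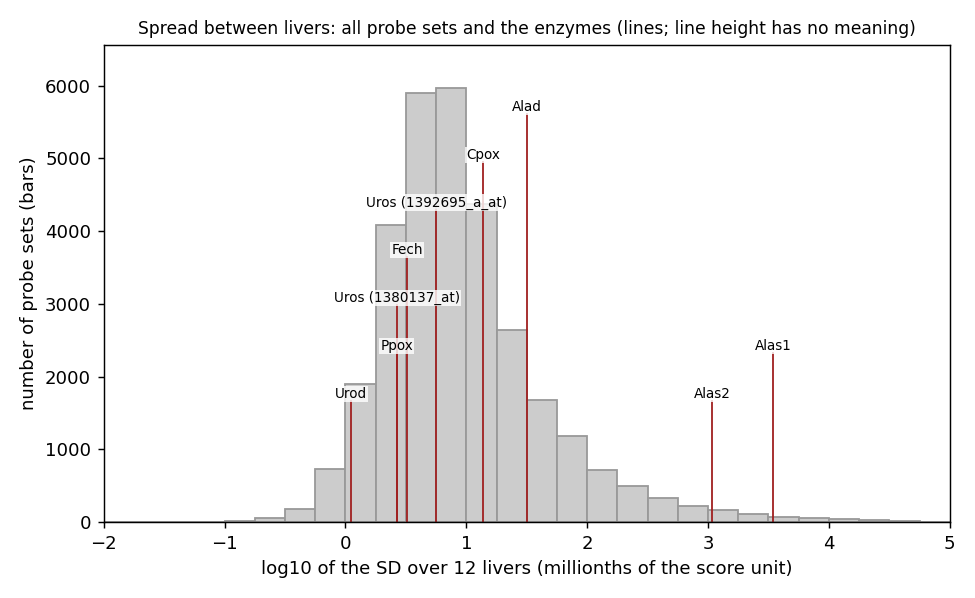
Distribution of the SD over 12 livers for all 31042 probe sets (horizontal axis, log10 of the SD in millionths of a score unit; vertical axis, number of probe sets), with the 9 enzyme probe sets marked by lines whose height has no meaning. Alas1 at 3481 and Alas2 at 1079 millionths lie in the upper tail, and Urod at 1.12 lies near the lower end.

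Alas2 went with red blood cell genes of the same liver. Of 20 erythroid genes listed (globins, membrane proteins and transcription factors of red cells), 10 were measured, and 3 of the 10 correlated with Alas2 at a Benjamini-Hochberg adjusted permutation p under 0.05. They were Hbb, the adult beta globin, Hba-a3, an alpha globin gene, and Hemgn, a nuclear protein of erythroid precursors. The mean score was 13.52 for Hbb, 10.58 for Hba-a3 and 8.73 for Alas2, beside a median of 7.36 over all probe sets. Hemgn (6.87) lay below that median, as did Epb42 (7.01), Gata1 (7.15), Rhag (6.52) and Rhd (7.04). Klf1 (7.38), Slc4a1 (7.54) and Ahsp (7.82) lay little above it. Whether these dim probe sets read expressed genes was not tested. A correlation of at least 0.7 with Alas2 was found in 3 of the 10, against 0.415% of the 14216 other genes, and one of -0.7 or lower in none, against 0.584%.

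Hbb (1367553_x_at) had a lowest value of -0.93, a median of 0.20 and a highest of 1.72 SDs in maple syrup livers, and of -1.91, -0.17 and 1.13 SDs in sugar mix livers. Maple syrup replicate 3 was the highest liver of the 12 for both Hbb and Alas2, and sugar mix replicate 2 the lowest for both. Over the 12 livers r was 0.96 (permutation p = 2e-05, adjusted 0.0002) and rho was 0.93 (p = 5e-05, adjusted 0.0005). Within maple syrup livers r was 0.94 (exact p = 0.0069) and within sugar mix livers 0.97 (exact p = 0.0028). Without the 2 livers farthest from the Alas2 median, sugar mix replicate 2 and maple syrup replicate 3, r was 0.90 (adjusted p = 0.0048). Hbb had a correlation of 0.39 with the array median, beside 0.41 for Alas2. With each array's median taken off, r between Alas2 and Hbb was 0.87 (adjusted permutation p = 0.0036). The suffix of the Hbb probe set marks probes that can also bind related transcripts, so it may read other beta globins too.

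Hba-a3 followed Alas2 with r = 0.79 (permutation p = 0.00256, adjusted 0.0104) and rho = 0.81 (p = 0.0023, adjusted 0.0078). Hemgn had r = 0.76 (permutation p = 0.00311, adjusted 0.0104) and rho = 0.80 (p = 0.00233, adjusted 0.0078). Both rested in part on the same 2 livers: without them r was 0.62 for Hba-a3 (adjusted p = 0.198) and 0.67 for Hemgn (adjusted p = 0.177), and without maple syrup replicate 3 alone the adjusted p for Hemgn was 0.0730. The other 7 did not pass: Slc4a1, the anion exchanger of the red cell membrane, had an r of 0.62 (adjusted p = 0.0794), Ahsp, which chaperones alpha globin, 0.57, Rhd 0.53, Epb42 0.37, Gata1 0.24, Klf1 0.13 and Rhag -0.10.

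Averaged over the 10 erythroid genes, the score ran from -0.35 through a median of -0.07 to 1.65 SDs in maple syrup livers and from -0.94 through -0.22 to 0.38 SDs in sugar mix livers. Of the 10, 8 had a positive g between the diets, with a median of 0.30, beside 6696 of all 14217 named genes. None of the 10 passed limma's test after adjustment. Epb42 had a g of 1.66 at an unadjusted limma p of 0.00858. It was 1 of the 10 under 0.05, beside 4.07% of all probe sets. In whole liver tissue a smaller number of cells of a type and less RNA per cell cannot be told apart, and whether Alas2 and the globins come from the same cells was not tested.

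**Figure D4:**
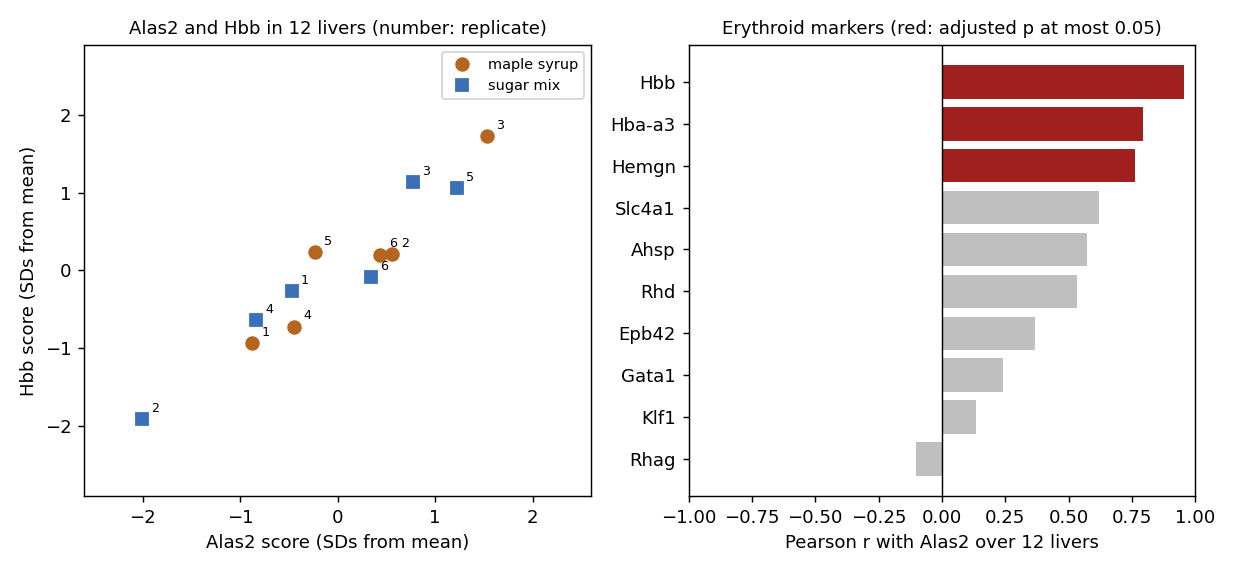
Left, Hbb against Alas2 in the 12 livers (both axes in SDs from their mean), circles for maple syrup and squares for sugar mix, numbered by replicate, with maple syrup replicate 3 at the top and sugar mix replicate 2 at the bottom (r = 0.96). Right, Pearson r of each of 10 erythroid genes with Alas2, red where the adjusted p is at most 0.05, as for Hbb, Hba-a3 and Hemgn.

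The genes most like Alas2 among 14216 others over the 12 livers were Hbb (r = 0.96), Cdc25b (0.93), a phosphatase that activates cyclin-dependent kinases, and Alox15 (0.87), a lipoxygenase. For Alas1 they were Baiap2l1 (r = 0.90), an adaptor that links membranes to actin, Mfsd2a (0.89), a carrier of lysophospholipids, and Fchsd2 (0.89), an adaptor of endocytosis. These genes were picked for their likeness, so the values describe them and test nothing.

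Within the pathway, no enzyme's relation to Alas1 passed after adjustment, and that of Alad came nearest. Over the 12 livers r was -0.75 (permutation p = 0.00727) and rho -0.71 (permutation p = 0.0131). Adjusted over the 7 other enzymes these missed the threshold, at 0.0509 for r and 0.0919 for rho. Among all genes, 1.4% had an r of -0.7 or lower with Alas1. The sign was the same inside each diet, with r = -0.72 in maple syrup livers (exact p = 0.0944) and r = -0.79 in sugar mix livers (exact p = 0.0694). Maple syrup replicates 3 and 4 had the lowest Alas1 scores, -1.46 and -1.60 SDs, and the highest Alad scores, 1.29 and 1.38 SDs. Sugar mix replicate 6 was the only sugar mix liver with low Alas1, at -1.21 SDs, and the only one with Alad above the mean, at 0.59 SDs. Without maple syrup replicates 3 and 4, the 2 livers farthest from the Alas1 median, r was -0.56 (adjusted p = 0.340), so the value leaned on them. With each array's median taken off, r was -0.39 (adjusted p = 0.999), and after quantile normalization Alad was constant and gave no value. The array medians span 169 millionths beside an SD of 31.7 for Alad, so the r of -0.39 carries much of the array median. Leaving out maple syrup replicate 1 instead gave r = -0.85 (adjusted p = 0.0134), and leaving out maple syrup replicate 2 an adjusted p of 0.0327.

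Among the other 6 enzymes, Ppox had r = -0.51 (adjusted p = 0.318), Urod 0.26, Uros -0.19, Alas2 -0.18, Fech 0.09 and Cpox 0.07, each of the last 5 with an adjusted p of 0.820 or more. Over all 28 pairs of the 8 enzymes, 20 had a positive r and none passed after adjustment, the lowest adjusted p being 0.204, for Alas1 with Alad. The share of positive r over all gene pairs was not computed, so the count of 20 has no background beside it. Urod and Fech had r = 0.62 (adjusted p = 0.406).

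The fasting genes are those of gluconeogenesis and fat burning known to rise in a fasted liver. Of 11 listed, 9 were measured, and none correlated with Alas1 after adjustment. Tat, the glucocorticoid-responsive enzyme of tyrosine breakdown, came nearest, with r = 0.68 (permutation p = 0.0142, adjusted 0.128) and rho = 0.68 (adjusted 0.163). Ppargc1a itself had r = 0.34 (adjusted p = 0.490), Pck1, the gatekeeper of gluconeogenesis, 0.40, and Fgf21, a fasting hormone, 0.44. Between the diets 3 of the 9 had a positive g and 6 a negative one, with a median of -0.16, and none passed adjustment. Of all 14217 named genes, 6696 had a positive g. Pck1 (g -1.91) and Sds (g -1.41), an enzyme of serine breakdown, had unadjusted p-values of 0.00522 and 0.0194 and adjusted ones of 1.00. At an unadjusted limma p under 0.05 they were 2 of the 9, beside 4.07% of all probe sets.

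The receptor Nr1i2 and the electron donor Por were high in livers with a high Alas1 score. This comparison, over 12 genes listed for the control of Alas1, and the next, over heme proteins and over markers of other liver cells, were chosen after the values had been seen. Nr1i2 (1369270_at), the drug-sensing receptor also called PXR, ran from -1.10 through -0.62 to 1.15 SDs in maple syrup livers and from -1.32 through 0.24 to 1.44 SDs in sugar mix livers. Its r with Alas1 was 0.81 (permutation p = 0.00238, adjusted 0.0188) and its rho 0.80 (p = 0.00266, adjusted 0.0160). Within maple syrup livers r was 0.83 (exact p = 0.0639, rho 0.54) and within sugar mix livers 0.83 (exact p = 0.0167, rho 0.83). Without the 2 livers farthest from the Alas1 median it was 0.81 (adjusted p = 0.0427). Por (1387109_at), the reductase that feeds electrons to cytochromes P450 and to heme oxygenase, ran from -0.82 through -0.35 to 0.67 SDs in maple syrup livers and from -2.23 through 0.52 to 1.47 SDs in sugar mix livers. Its r was 0.75 (permutation p = 0.00313, adjusted 0.0188) and its rho 0.70 (p = 0.0142, adjusted 0.0447). Within maple syrup livers r was 0.92 (exact p = 0.0236) and rho 0.94 (exact p = 0.0167). Within sugar mix livers r was 0.83 (exact p = 0.111), but rho was only 0.0857 (exact p = 0.919). Without the 2 farthest livers r was 0.76, with an adjusted p of 0.0684, and without sugar mix replicate 6 alone the adjusted p was 0.0547 for both genes.

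Of the 12, 2 thus had an r of at least 0.7, beside 1.45% of all genes. The next in size were Foxo1, a forkhead factor of the fasted liver (r = 0.67, adjusted p = 0.0696, with rho = 0.80 at an adjusted p of 0.0160, and r = -0.14 after quantile normalization), and the clock repressors Nr1d1 (r = -0.62) and Nr1d2 (r = -0.60), both at an adjusted p of 0.0881. By rho, Nr1d2 (-0.66), Nrf1 (-0.68) and Hnf4a (0.66) passed as well, each at an adjusted permutation p of 0.0447. Nrf1, the gene of NRF-1, thus ran against Alas1, with r = -0.57 (adjusted p = 0.112). Without the 2 farthest livers its r was -0.38 (adjusted p = 0.415). Por has 2 probe sets, and Foxo1, Nr1d2, Nrf1 and Hnf4a have 3 each, of which only the brightest was correlated. Neither Nr1i2 (g -0.46) nor Por (g -0.33) differed by diet at an adjusted p under 0.05.

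**Figure D5:**
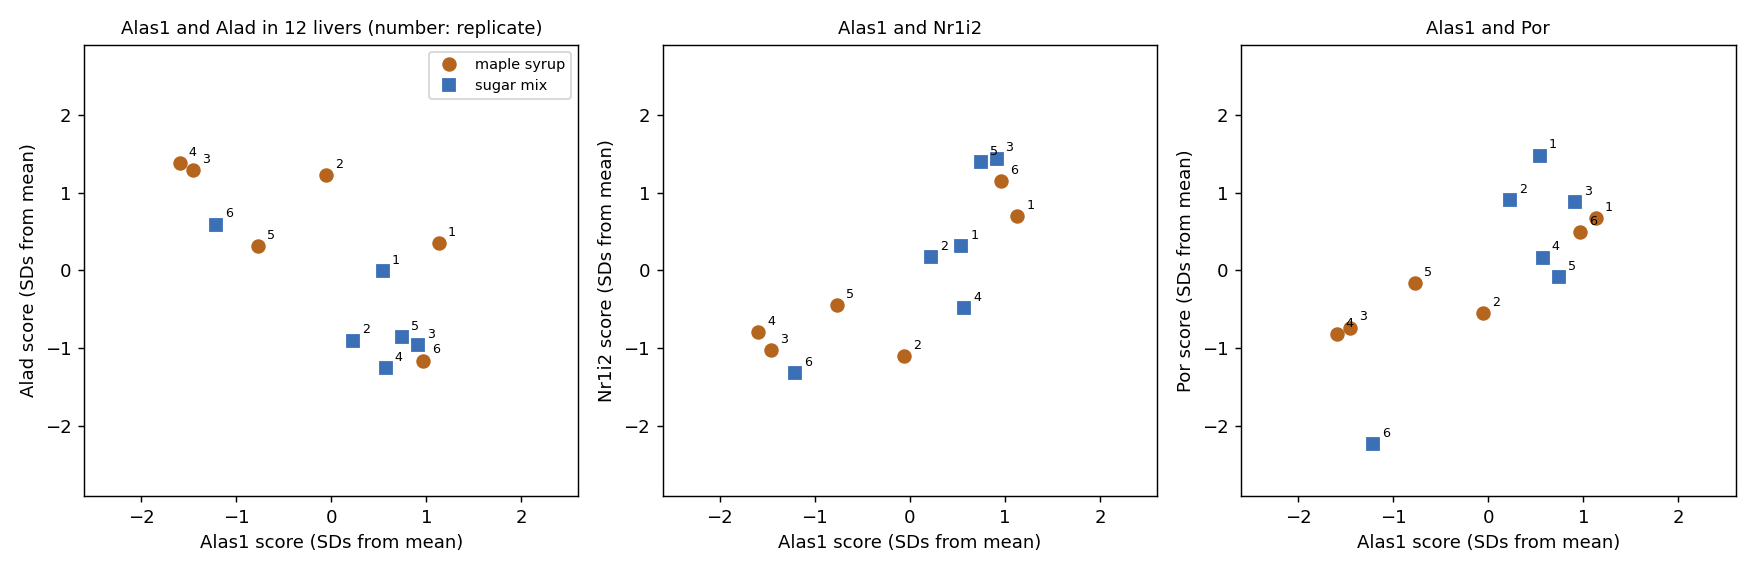
Alas1 (horizontal axes) against Alad, Nr1i2 and Por (vertical axes) in the 12 livers, all in SDs from the mean of the 12 livers, circles for maple syrup and squares for sugar mix, numbered by replicate. Alad has r = -0.75 with Alas1, which missed the threshold (adjusted p = 0.0509 over 7 enzymes). Nr1i2 (r = 0.81) and Por (r = 0.75) rise with Alas1, and their family of 12 genes was chosen after the values had been seen. The adjusted p-values of the 2 families are therefore not to be set against each other. Maple syrup replicates 3, 4 and 5 and sugar mix replicate 6 form the low end of Alas1.

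Among 13 heme proteins of liver, Cat, the catalase that breaks down hydrogen peroxide, ran against Alas1. Its r was -0.81 (permutation p = 0.00194, adjusted 0.0252) and its rho -0.80 (p = 0.00252, adjusted 0.0169). Without the 2 farthest livers r was -0.71 (adjusted p = 0.176). With each array's median taken off, the r of Cat was -0.10. That value says little, since the array medians span 169 millionths and the SD of Cat was only 5.68 millionths. Cyp3a23-3a1, a cytochrome P450 that metabolises drugs and steroids, had r = -0.73 (adjusted p = 0.0509) and rho = -0.80 (adjusted 0.0169). Its r was -0.85 within maple syrup livers (exact p = 0.0417) but -0.32 within sugar mix livers (exact p = 0.635). Without the 2 farthest livers it was -0.68 (adjusted p = 0.176). The other 11 did not pass, Cyp2e1 coming next with r = -0.48, and no diet difference passed among the 13. An r of -0.7 or lower with Alas1 was found in 2 of the 13, beside 1.4% of all genes. One of at least 0.7 was found in 0 of the 13, beside 1.45%.

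Among 15 markers of other liver cells, Cd163, a scavenger receptor of macrophages, alone passed with Alas1, at r = 0.80 (permutation p = 0.00245, adjusted 0.0367) and rho = 0.83 (adjusted 0.0225). Of the 7 macrophage markers listed 5 were measured, and the other 4 had an r of 0.65 for Cd68, 0.60 for Csf1r, 0.50 for Clec4f and 0.10 for Adgre1. A positive r with Alas1 was found in 51.2% of all genes. An r of at least 0.7 was found in 1 of the 15 markers, beside 1.45% of all genes. One of -0.7 or lower was found in 0 of the 15, beside 1.4%. Without the 2 farthest livers r was -0.0663 for Csf1r and -0.39 for Adgre1. Within maple syrup livers Csf1r had r = 0.79 and Adgre1 0.40, and within sugar mix livers -0.63 (rho -0.89, exact p = 0.0333) and -0.69. Averaged over the 5, the score ran from -1.45 through a median of -0.04 to 0.82 SDs in maple syrup livers and from -0.21 through 0.14 to 0.55 SDs in sugar mix livers. Maple syrup replicates 3 and 4, lowest of all for Alas1, were the 11th and the 12th in this average, while maple syrup replicate 5, low in Alas1, was the 3rd. For Cd163 without the 2 farthest livers r was 0.67 (adjusted p = 0.256). Within maple syrup livers Cd163 had r = 0.87 (exact p = 0.0319). Within sugar mix livers it had r = 0.65 (exact p = 0.129) and rho = 0.26 (exact p = 0.658). The part of these cells in the correlations of Alas1 was not tested.

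No gene around the pathway passed the diet test. Of 23 genes listed for heme transport and use, 19 were measured, 8 with a positive g and 11 with a negative one (median -0.07). None reached an unadjusted limma p under 0.05, beside 4.07% of all probe sets. Over all named genes, 6696 of 14217 had a positive g, and the sign counts given here are to be read beside that share. Slc25a38, which brings glycine into the mitochondrion for the first step, had a g of -0.97, and Abcb10, a mitochondrial transporter of red cell precursors, 0.74. Hmox1, the inducible enzyme that breaks heme down, had -0.06, and Hpx, the plasma protein that binds free heme, -0.24. The 12 genes listed for the control of Alas1 split into 6 positive and 6 negative (median 0.02), and the 13 heme proteins into 7 positive and 6 negative (median 0.11). Among the latter, Cyp8b1, a P450 of bile acid synthesis, had a g of -1.05 and Cyp3a2 0.94, neither with an unadjusted p under 0.05.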

How the data were processed

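Rat liver RNA was hybridised to 12 Affymetrix arrays from 2 ug of total RNA each, per the labels' protocols, 6 for each diet and each labelled a biological replicate. The deposited table gives the authors' processed score for 31099 probe sets, with 0 missing values; how it was summarized and normalized is not given in the sources used here. The test had been planned for log2 values. It was kept, because it uses each probe set's own spread, but no fold is given. After 57 controls were left out, 31042 probe sets were tested; 20826 had 1 symbol in the platform annotation, 436 had several and 9780 are unnamed here. A gene with several probe sets is represented by the brightest. The number of arrays limits the precision.

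The diet test was limma 3.58.1 under R 4.3.3 (intensity trend, two-sided, Benjamini-Hochberg adjustment over all probe sets, threshold 0.05). Hedges' g has a 95% interval from the noncentral t distribution. The exact permutation test runs through every split of the 12 animals into groups of 6, and its smallest possible p is 0.00216. Correlations used the brightest probe set, 100000 permutations (smallest p 1e-05) or, within a diet, all 720 orders. Adjustment was over each family, the first being 7 enzymes, 10 erythroid genes and 9 fasting genes. The further families were 12 genes listed for the control of Alas1, 13 heme proteins and 15 markers of other cells. The last 3 families were chosen after seeing the data. Enzymes and lists were chosen with earlier results of these data known. The genes named are the 8 enzymes, the 3 genes most like Alas1 and the 3 most like Alas2, and list members whose values stand beside a result.

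Promoter windows are RefSeq's for GRCr8; 7 of 8 enzymes had one, and Cpox is named only. Motifs were searched on both strands. The scripts were tested on simulated data. The fit was repeated with each liver left out, with 1 probe set per gene, with a floor or without dim probe sets, after quantile normalization or median centring, with the replicate number as a block, and with array weights or another variance model. Figures were drawn with matplotlib 3.10.9.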

Additional observations from a re-analysis of the deposited data

Results flagged for a closer look

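Of 56 diet groups of 6 livers checked for a single liver far from the rest, 3 had one, where chance alone gives about 2.8. Sugar mix replicate 6 was the lowest of its diet for Alas1, at -1.21 SDs, far below the other 5 sugar mix livers. The same liver was the lowest sugar mix liver for Nr1i2 and Por. Sugar mix replicate 5 was the lowest of its diet for Angptl4, a fasting-responsive inhibitor of lipoprotein lipase, at -1.91 SDs. Maple syrup replicate 5 was the highest of its diet for Cpt1a, the entry enzyme of mitochondrial fat oxidation, at 1.58 SDs.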

How the results depend on the processing

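No probe set, and none of the enzymes tested, was called between the diets under any of the 9 other settings of the fit. None was called with any of the 12 livers left out either. Alad and Cpox became constant after quantile normalization, so they were not tested in that setting. The array medians differ by more than most probe sets vary, so quantile normalization and median centring replace much of the signal of the narrow ones. The median moderated t of all probe sets was -0.03 as deposited, -0.35 after quantile normalization and 0.68 after median centring. Probe sets at an unadjusted p under 0.05 numbered 1264 as deposited and 314 after median centring. Moderated t for Uros turned to 0.64 with median centring and 0.0872 with array weights, and for Urod to 0.66 with median centring. With each liver left out in turn, t ran from -1.72 to -0.62 for Alas1, -0.0898 to 1.07 for Alas2, 1.97 to 3.99 for Alad, -0.58 to 0.37 for Uros, -0.55 to 0.0291 for Urod, 0.96 to 2.44 for Cpox, 0.30 to 1.39 for Ppox and 0.0756 to 1.62 for Fech, the highest of Alad without maple syrup replicate 6, of Cpox without sugar mix replicate 5 and of Fech without maple syrup replicate 5.

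Same-numbered animals of the 2 diets did not deviate together (correlations from -0.04 to 0.13, with 1 of 6 over 0.1), so the numbers name animals and pair none. With the replicate block, 0 probe sets were called, 1359 had an unadjusted p under 0.05 and Alad had a t of 1.81.

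The count of erythroid genes correlated with Alas2 was 3 as deposited and 0 after quantile normalization. There Hbb became constant and gave no value, while Hba-a3 had r = 0.71 (adjusted p = 0.0857) and Hemgn 0.43 (adjusted p = 0.620). The count was 1 without the 2 livers farthest from the median, and 2 to 4 with each liver left out. For Alas1 and the 12 genes listed for its control it was 2 by Pearson r, Nr1i2 and the electron donor Por. That count was 1 without the 2 farthest livers and 0 to 6 with each liver left out. It was 1 for heme proteins and 1 for markers of other cells, and 0 to 2 for each with each liver left out. It was 0 for both under median centring, centring within each diet and the removal of the 2 farthest livers. Median centring mostly replaced the narrow signal of Cat, so the 0 there says little for heme proteins. After quantile normalization the count was 0 for both, but only 4 of the 13 heme proteins then had a value. Cat and Cyp3a23-3a1 were not among them, so that 0 says nothing for heme proteins. Of the 15 markers, 14 had a value. For the other enzymes the count was 0 to 1 with each liver left out.

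Of 64 correlations, 20 changed sign under at least 1 of quantile normalization, median centring, centring within each diet and the removal of 2 livers. Among the correlations named, with Alas1, Uros was 0.22 after quantile normalization and 0.21 without the 2 farthest livers, Fech -0.40, Ppargc1a -0.0384 and Foxo1 -0.14 after quantile normalization, Adgre1 -0.10 after it and -0.39 without the 2 farthest livers, Csf1r -0.0663 without them, Cpt1a -0.00493 after median centring and Sds -0.14 without the 2 farthest livers. With Alas2, under quantile normalization, median centring and the removal of 2 livers, Epb42 was -0.0821, -0.28 and -0.0534 and Klf1 -0.19, -0.37 and -0.14, while Gata1 was -0.35 and -0.26 under the last 2 of these. With each liver left out, Alas1 with Alas2 ran from -0.30 to 0.0592, with Cpox -0.21 to 0.37, with Fech -0.14 to 0.29, with Cpt1a -0.13 to 0.19, with Adgre1 -0.0793 to 0.32 and with Angptl4 -0.36 to 0.14, and Alas2 with Klf1 -0.0588 to 0.32 and with Rhag -0.41 to 0.0219. The cause of these changes was not tested. Another probe set for Alas1 or Alas2 was not run, since each has 1.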
